A study of Mus musculus with 6 samples.

Results

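The genes described here are the SREBP-controlled genes of sterol and fatty acid synthesis, together with 3 genes of sterol export and receptor turnover. They were taken by symbol from the deposited table of raw counts. Of 35 symbols listed, 34 had a row among the 37620 genes of the table, and all 34 entered the test. Hmgcs1 is not analysed here. The members divide into 7 enzymes of the path that leads to squalene, 10 enzymes that turn squalene into cholesterol, 5 genes of the SREBP system and of sterol transport, 9 enzymes of fatty acid synthesis and the 3 export genes.

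The study sequenced total RNA of 6 libraries, 3 of pMIR-Sox2 and 3 of pMIR. Both groups were splenic B cells of C57Bl/6 mice aged 4 months, activated in culture with anti-CD40 at 1 µg/ml plus IL-4 at 12.5 µg/ml. Retrovirus was applied at 24 and at 48 h. In the pMIR-Sox2 group it carried Sox2, a transcription factor of stem cells, and in the pMIR group it was the vector alone, and mCherry-positive cells were collected by sorting at 96 h. The labels give neither the promoter that drives Sox2 nor the animal, pool or culture behind each replicate, so a p-value reflects only how these libraries vary, which may be technical. Sox2 is introduced in excess, and no group without retrovirus is part of the comparison.

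Cells make cholesterol from acetyl-CoA through mevalonate, the isoprenoids and squalene, and they make fatty acids from the same acetyl-CoA through malonyl-CoA. Both paths are controlled by the SREBP transcription factors, which are held in the endoplasmic reticulum with their escort Scap by the Insig proteins when sterols are plentiful and are cut and sent to the nucleus when sterols are scarce. The liver X receptors respond to oxysterols in the opposite sense, raising the transporters that send cholesterol out of the cell and Mylip, which limits sterol uptake. Dividing lymphocytes use both paths to build membrane.

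In pMIR-Sox2 cells the synthesis genes were mostly lower and the export genes were higher. By edgeR's quasi-likelihood test with Benjamini-Hochberg adjustment over all genes tested and a threshold of 0.05, 22 of the 34 members fell, 4 rose and 8 did not pass. Over the 12898 genes tested other than Sox2, 20% fell and 23.2% rose, so the share of members that fell (64.7%) was above that of all genes and the share that rose (11.8%) was below it. The median log2 fold change of pMIR-Sox2 over pMIR was -0.54 over the members and -0.02 over all genes tested. For 24 members all pMIR-Sox2 libraries lay below all pMIR libraries, which held for 27.6% of genes tested, and for 4 members they all lay above, against 28.9% of genes tested. The falls were moderate, between 0.38 and 1.13 on the log2 scale, and 3 of them (Lss, Sc4mol and Mvd) exceeded 2-fold. The exact permutation test of a single gene over these 6 libraries cannot go below a two-sided p of 0.1, or 0.25 within the 3 same-numbered pairs, and no single-gene p from it is given. Levels are relative (CPM, counts scaled to the size of the library), and in bulk RNA fewer cells of a type and less RNA per cell cannot be told apart.

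**Figure D1:**
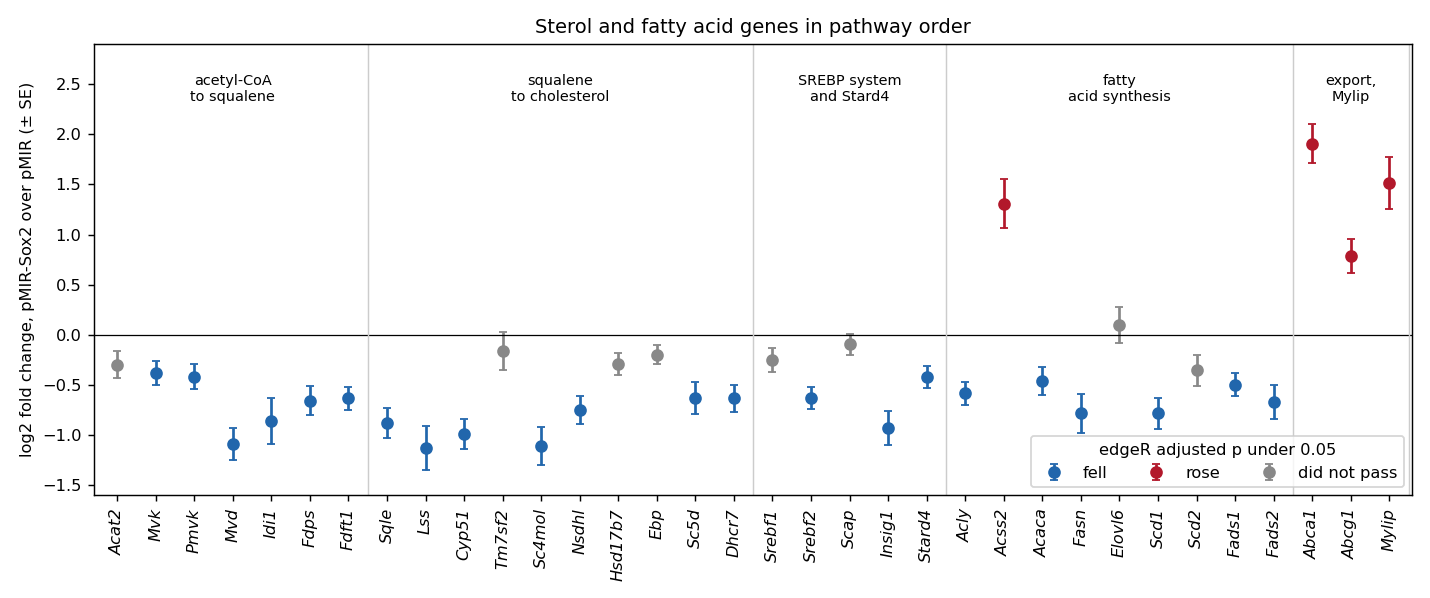
Log2 fold change of each member, pMIR-Sox2 over pMIR, with its standard error, in pathway order from acetyl-CoA to export; colours mark edgeR calls at an adjusted p under 0.05. Blue points (22 that fell) fill the synthesis steps between -0.38 and -1.13, and the 4 red points are Acss2, Abca1, Abcg1 and Mylip.

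Gene counts per library ran from 17153805 to 20770447 in pMIR-Sox2 and from 21421769 to 27692437 in pMIR, and no member had fewer than 55 counts in any library. Sox2 had 21528, 14536 and 10763 counts in pMIR-Sox2 replicates 1 to 3, against 20, 7 and 37 in pMIR, which fits the labels. The first principal component of log2 CPM held 83.4% of the variance and separated the groups, with pMIR-Sox2 at -57.9, -68.3 and -35.0 and pMIR between 52.1 and 54.9. The pMIR-Sox2 replicate 3 library was thus the nearest to pMIR and had the least Sox2 (624 CPM). Replicate 1 had the most Sox2 (989 CPM), yet replicate 2 (786 CPM) lay farthest from pMIR. Replicate 3 was the highest of pMIR-Sox2 in 20 of the 22 members that fell (90.9%), against 71.4% of all genes that fell. In pMIR, replicate 3 was the highest in 16 of the 22. A link to the Sox2 level was not tested. Without pMIR-Sox2 replicate 3, 24 members fell and 4 rose. The share of all genes called in that fit alone is not given here, so these counts have no share to be set against. Leaving out any 1 library gave 1783 to 2885 falling and 2362 to 3321 rising genes over all genes. The 10 B cell markers summed to between 7364 and 10677 CPM in pMIR-Sox2 and between 13966 and 16662 CPM in pMIR. Cd74 was the largest part of these sums, with a mean of 4371 CPM in pMIR-Sox2 and 8964 CPM in pMIR. By the same test 6 markers were lower and 2 (Pax5 and Ebf1) higher in pMIR-Sox2, and Cd79a and Blnk did not pass. Plasma cell markers summed to between 494 and 575 CPM in pMIR-Sox2 and between 902 and 1094 CPM in pMIR, and of 5 tested 3 (Irf4, Igj and Xbp1) fell and 1 rose: Prdm1, a regulator of plasma cells, had 27.2, 25.5 and 13.6 CPM in pMIR-Sox2, against 9.85, 8.67 and 10.6 CPM in pMIR. T cell markers summed to between 331 and 398 CPM in pMIR-Sox2 and between 222 and 286 CPM in pMIR, with 6 of the 9, among them Cd3e, Cd4 and Cd8a, under 1 CPM in every library, and of 3 tested Thy1 rose. Myeloid markers summed to between 38.3 and 43.3 CPM in pMIR-Sox2 and between 36.6 and 39.0 CPM in pMIR, with 3 of 10 at 0 and 7 under 1 CPM. Of the 5 myeloid markers tested, Itgam (3.19 to 4.98 CPM in pMIR-Sox2 and 0.479 to 0.620 CPM in pMIR), Emr1 (25.4 to 30.3 CPM in pMIR-Sox2 and 17.00 to 20.5 CPM in pMIR) and Lyz2 (under 1 CPM in every library) rose, and Cd68 (6.87 to 9.04 CPM in pMIR-Sox2 and 16.9 to 19.2 CPM in pMIR) fell. Dendritic cell markers summed to between 11.99 and 15.2 CPM in pMIR-Sox2 and between 33.3 and 43.3 CPM in pMIR, with Flt3 and Zbtb46 of 3 tested falling, while natural killer, erythroid and megakaryocyte markers each summed to under 3 CPM in every library. The part of these markers in the results below was not tested.

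The promoters of 5 members are shown, 4 of synthesis genes that fell and 1 of an export gene that rose, so that the motifs searched can be read in them. They are from RefSeq on GRCm38.p6 and run from 250 bases before to 50 after the start of the gene, read along the gene's strand. Mvd, Cyp51, Sc4mol and Srebf2 fell and were picked after their values were seen. Abca1 is the export gene with the smallest adjusted p. Capitals mark the CCAAT box, which reads as ATTGG when it lies on the other strand. They also mark the E-box, CACGTG, and a loose form of the sterol response element, TCACNNCA, which reads as TGNNGTGA when it lies on the other strand.
Mvd, chr8:122443373-122443672, minus strand: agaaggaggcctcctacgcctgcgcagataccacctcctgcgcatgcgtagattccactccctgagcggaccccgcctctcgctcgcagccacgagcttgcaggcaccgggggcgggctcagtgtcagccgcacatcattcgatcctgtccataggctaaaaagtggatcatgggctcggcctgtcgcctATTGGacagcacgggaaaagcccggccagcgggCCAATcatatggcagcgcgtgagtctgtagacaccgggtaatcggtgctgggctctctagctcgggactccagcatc
Cyp51, chr5:4104648-4104947, minus strand: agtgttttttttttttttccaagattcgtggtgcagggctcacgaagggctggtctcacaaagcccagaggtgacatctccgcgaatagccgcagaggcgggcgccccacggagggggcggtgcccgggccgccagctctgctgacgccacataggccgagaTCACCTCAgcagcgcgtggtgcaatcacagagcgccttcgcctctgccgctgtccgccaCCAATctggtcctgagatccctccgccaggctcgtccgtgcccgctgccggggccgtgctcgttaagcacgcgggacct
Sc4mol, chr8:64733529-64733828, minus strand: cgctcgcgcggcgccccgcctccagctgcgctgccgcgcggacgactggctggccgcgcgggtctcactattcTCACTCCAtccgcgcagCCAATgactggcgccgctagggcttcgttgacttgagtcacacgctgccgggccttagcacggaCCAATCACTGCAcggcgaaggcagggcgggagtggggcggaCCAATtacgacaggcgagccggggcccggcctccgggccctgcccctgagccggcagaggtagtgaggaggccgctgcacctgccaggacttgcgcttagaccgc
Srebf2, chr15:82147019-82147318, plus strand: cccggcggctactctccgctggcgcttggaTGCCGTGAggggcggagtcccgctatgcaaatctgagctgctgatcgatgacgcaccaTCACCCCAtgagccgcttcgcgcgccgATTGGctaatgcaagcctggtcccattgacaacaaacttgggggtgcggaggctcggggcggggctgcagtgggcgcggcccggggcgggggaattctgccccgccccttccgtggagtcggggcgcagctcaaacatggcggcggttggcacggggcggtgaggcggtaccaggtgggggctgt
Abca1, chr4:53159846-53160145, minus strand: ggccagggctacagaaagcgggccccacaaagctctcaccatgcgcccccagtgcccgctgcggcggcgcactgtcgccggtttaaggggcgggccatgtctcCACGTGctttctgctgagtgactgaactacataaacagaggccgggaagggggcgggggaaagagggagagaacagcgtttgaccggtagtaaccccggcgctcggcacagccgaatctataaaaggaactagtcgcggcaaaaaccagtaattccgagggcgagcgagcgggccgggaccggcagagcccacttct

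In the Cyp51 promoter the stretch TCACCTCA begins 88 bases before the start and a CCAAT begins 29 bases before it. The Sc4mol promoter holds TCACTCCA at 177 bases, TCACTGCA at 92 bases, and CCAAT at 160, 96 and 55 bases before the start, the second of which overlaps TCACTGCA by 1 base. Srebf2, the gene of the sterol factor itself, has TGCCGTGA at 220 bases and TCACCCCA at 162 bases, with ATTGG at 135 bases. Mvd has ATTGG at 60 bases and CCAAT at 27 bases and no TCACNNCA, while Abca1 has CACGTG at 147 bases and none of the others.

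A RefSeq promoter was at hand for 26 of the 34 members, and both strands of each were searched. CCAAT, the box bound by NF-Y, was present in 20 of the 26 (76.9%), against 43.5% of 8682 tested genes and 41.1% of all 27025 genes with such a promoter. The GC box GGGCGG, not capitalised above, was present in 22 (84.6%), against 69.5% and 38.2%. CACGTG was present in 6 (23.1%), against 12.1% and 8.09%. The exact sterol form TCACNCCAC was in none of the 26, against 1.34% and 1.44%, and the looser TCACNNCA, searched after the promoters were seen, was in 8 (30.8%), against 13.3% and 15.7%. With 1 mismatch allowed in TCACNCCAC the count was 10 (38.5%), against 29.3% and 26.7%. The Sox form CATTGTT was in none of the 26, against 2.49% and 4.33%. These matches describe the letters of a 300-base window and are not binding sites.

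The path from acetyl-CoA to squalene was lower in pMIR-Sox2, with 6 of its 7 measured enzymes falling and a median log2 fold change of -0.63. That is 85.7% of the 7, against 20% of all genes tested other than Sox2. The summed level of the 7 was 420 ± 70.0 CPM in pMIR-Sox2 and 652 ± 48.0 CPM in pMIR (SD, n = 3 each), so that 64.4% of the pMIR level was left. Mvd, which makes isopentenyl diphosphate by decarboxylating mevalonate diphosphate, had 41.2, 45.4 and 63.4 CPM in pMIR-Sox2 replicates 1 to 3, against 103, 99.3 and 116 CPM in pMIR. Each pMIR-Sox2 library was well below each pMIR library, and the log2 fold change was -1.09 with a standard error (SE) of 0.16 (edgeR adjusted p = 0.000747). Fdft1, the synthase that joins farnesyl units into squalene, had 65.6, 74.3 and 86.9 CPM in pMIR-Sox2, against 116, 114 and 122 CPM in pMIR. Its pMIR libraries were close together and all above pMIR-Sox2 (log2 fold change -0.63, SE 0.12, adjusted p = 0.00248). Fdps, which makes farnesyl diphosphate, had 105, 122 and 156 CPM in pMIR-Sox2, against 198, 193 and 211 CPM in pMIR. The groups did not overlap, with replicate 3 the highest in both (log2 fold change -0.65, SE 0.14, adjusted p = 0.0056). Idi1, the isomerase that supplies dimethylallyl diphosphate, had 31.7, 20.6 and 39.2 CPM in pMIR-Sox2, against 59.0, 42.4 and 64.3 CPM in pMIR. Replicate 2 was the lowest in both groups, and the highest pMIR-Sox2 library came close to the lowest pMIR library (log2 fold change -0.86, SE 0.23, adjusted p = 0.0158). The smallest falls were those of the kinases Pmvk and Mvk, at -0.41 and -0.38. Acat2, the thiolase that starts the path, did not pass (log2 fold change -0.30, adjusted p = 0.109), and it did with the replicate number as a block (adjusted p = 0.0224).

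The calls of Mvk, Pmvk and Idi1 were lost in several alternative runs, whereas Mvd, Fdps and Fdft1 stayed past the threshold in each alternative run. Without pMIR-Sox2 replicate 1 the adjusted p was 0.109 for Mvk, 0.0774 for Pmvk and 0.0509 for Idi1, and 3 of the 7 enzymes were left as falling. Without pMIR replicate 1 these 3 values were 0.0769, 0.0505 and 0.0505. Without pMIR replicate 3 they were 0.117, 0.0801 and 0.0565, again with 3 enzymes left in each run. The share of all genes that fell in each of these runs is not given here, so the counts left have no share to be set against. Mvk was also lost without pMIR-Sox2 replicate 2 (adjusted p = 0.0684) and with library totals as the only scaling (0.0611). Pmvk was also lost without pMIR replicate 2 (adjusted p = 0.0583), and Idi1 with no filter on low counts (0.0925). Acat2 passed without pMIR replicate 2 (adjusted p = 0.0249). Some reads of this path cannot be placed with certainty: 45.9% of the 50-base windows of Acat2 also occur in Acat3 (4.05 CPM in pMIR-Sox2 and 4.83 CPM in pMIR), 21.3% of those of Idi1 in the pseudogene Gm13502, 11.7% of those of Fdps in the overlapping Gm43738 and 10.9% of those of Fdft1 in the pseudogene Gm6781. Ctsb, on the opposite strand, covers 18.3% of the exon bases of Fdft1 and had 196 CPM in pMIR-Sox2 and 147 CPM in pMIR. Akap9 likewise overlaps 3.76% of the exon bases of Cyp51, and the sources do not say whether counting used the strand.

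The conversion of squalene to cholesterol was lower in pMIR-Sox2 as well. Of its 10 enzymes 7 fell (70%, against 20% of all genes tested other than Sox2) and 3 did not pass. The median log2 fold change was -0.69, the lowest of the 5 roles. The summed level was 718 ± 146 CPM in pMIR-Sox2 and 1283 ± 109 CPM in pMIR (SD, n = 3 each). Sqle, the squalene epoxidase and a slow step of the path, had 94.5, 87.8 and 127 CPM in pMIR-Sox2, against 195, 169 and 204 CPM in pMIR. The highest pMIR-Sox2 library lay below the lowest pMIR library (log2 fold change -0.88, SE 0.15, adjusted p = 0.00164). Cyp51, which removes the first methyl group from lanosterol, had 168, 163 and 233 CPM in pMIR-Sox2, against 387, 335 and 396 CPM in pMIR. The gap between the groups was wider than the range within either (log2 fold change -0.99, SE 0.15, adjusted p = 0.000966). Sc4mol, the methyl oxidase that follows it, had 64.5, 72.6 and 111 CPM in pMIR-Sox2, against 173, 168 and 193 CPM in pMIR. Replicate 3 was the highest library of pMIR-Sox2 and was still clear of pMIR (log2 fold change -1.10, SE 0.19, adjusted p = 0.00177). Nsdhl, the dehydrogenase that acts with Sc4mol, had 35.9, 44.7 and 53.5 CPM in pMIR-Sox2, against 72.6, 76.5 and 76.2 CPM in pMIR. Its pMIR libraries were almost level and all above pMIR-Sox2 (log2 fold change -0.75, SE 0.14, adjusted p = 0.00267).

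Lss, which folds squalene epoxide into lanosterol, showed the strongest fall of all members. It averaged 70.3 ± 22.3 CPM in pMIR-Sox2 and 153 ± 25.7 CPM in pMIR (SD, n = 3 each), with a log2 fold change of -1.13 (SE 0.22, adjusted p = 0.00324). Dhcr7, the last reductase before cholesterol, and Sc5d, the desaturase before it, both fell by 0.63 on the log2 scale (adjusted p = 0.00431 and 0.0112). The call of Sc5d was lost without pMIR-Sox2 replicate 1 (adjusted p = 0.053). The 3 enzymes that did not pass were the ketoreductase Hsd17b7, Ebp and Tm7sf2, at -0.29, -0.20 and -0.16 on the log2 scale. Hsd17b7 had an adjusted p of 0.0629, which was 0.0226 with the replicate number as a block and 0.0401 without pMIR replicate 2. The isomerase Ebp had 48.8, 53.0 and 54.7 CPM in pMIR-Sox2, against 56.6, 59.4 and 63.1 CPM in pMIR. Its groups did not overlap, yet the difference did not pass (adjusted p = 0.136). Tm7sf2, a sterol reductase that shares 12.1% of its exon bases with Vps51 on the same strand, had overlapping groups.

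**Figure D2:**
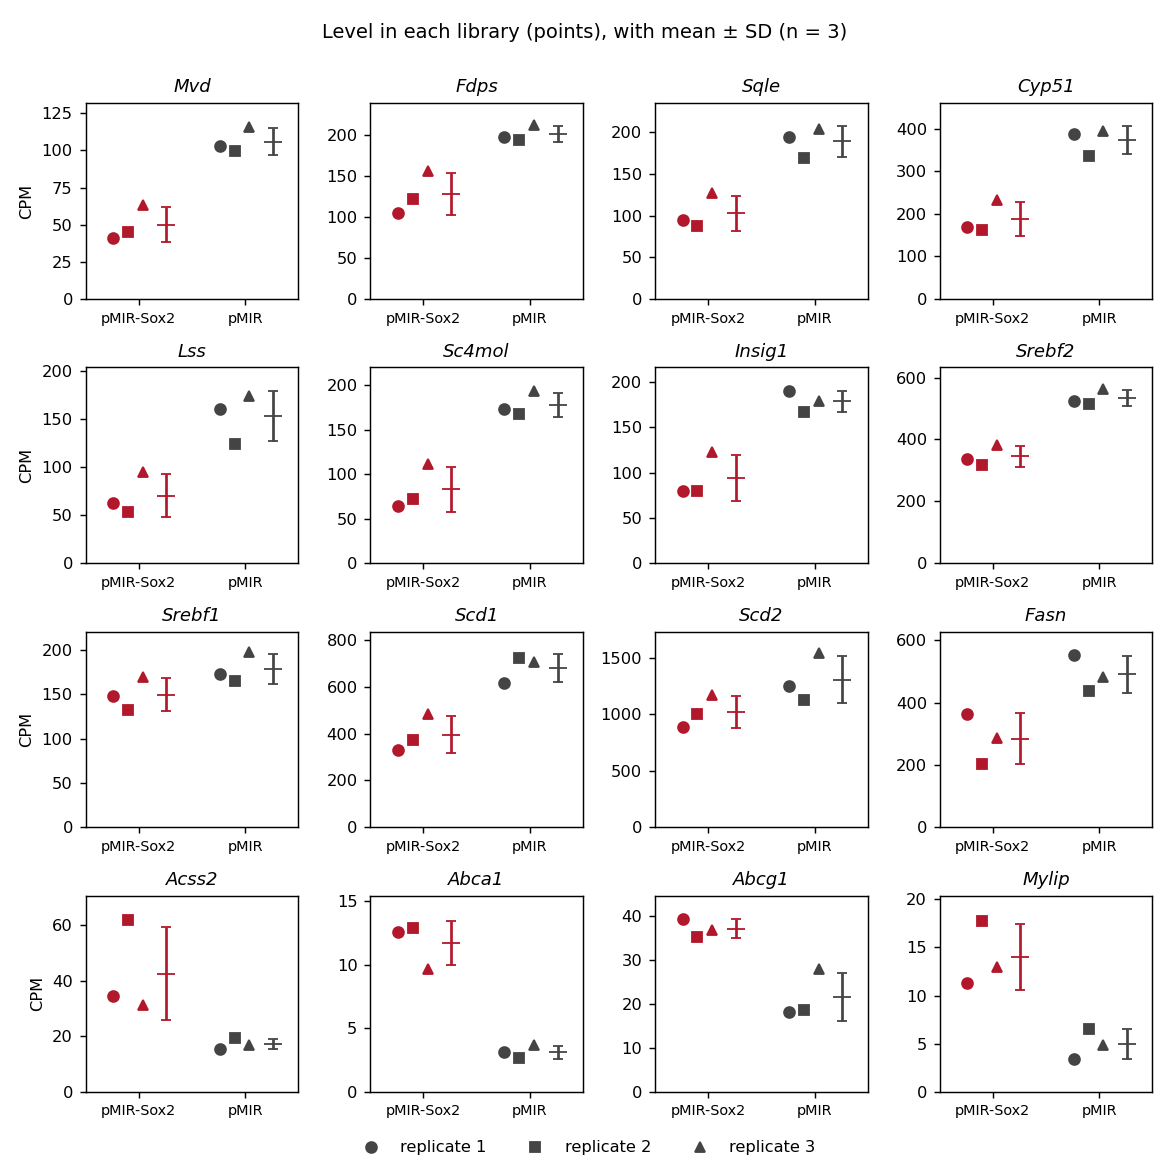
CPM of 16 members in each library (points, shaped by replicate number), with the mean ± SD (n = 3) beside them, pMIR-Sox2 in red and pMIR in grey; each axis starts at 0. Groups overlap only for Srebf1 and Scd2, and Acss2, Abca1, Abcg1 and Mylip are the panels with pMIR-Sox2 above pMIR.

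Among the genes that control the path, the factor Srebf2 and its anchor Insig1 fell, and Srebf1 and the escort Scap did not pass. The median log2 fold change of the 5 genes was -0.42, and they summed to 799 ± 84.8 CPM in pMIR-Sox2 and 1144 ± 58.5 CPM in pMIR (SD, n = 3 each). Srebf2, the SREBP that mainly serves sterol synthesis, had 336, 317 and 382 CPM in pMIR-Sox2, against 523, 513 and 563 CPM in pMIR. The groups were far apart relative to their ranges (log2 fold change -0.63, SE 0.11, adjusted p = 0.00197). Insig1, both a target of the SREBPs and their retainer in the endoplasmic reticulum, had 79.5, 80.1 and 123 CPM in pMIR-Sox2, against 191, 167 and 179 CPM in pMIR. Replicate 3 stood above the other pMIR-Sox2 libraries and below every pMIR library (log2 fold change -0.93, SE 0.17, adjusted p = 0.00232). Stard4, a carrier that moves cholesterol between membranes, had 104, 98.6 and 124 CPM in pMIR-Sox2, against 141, 143 and 153 CPM in pMIR. Its fall was smaller (log2 fold change -0.42, SE 0.11, adjusted p = 0.0137), and it was lost without pMIR-Sox2 replicate 1 (adjusted p = 0.0512) and without pMIR replicate 3 (0.0588).

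Srebf1, whose products mainly serve fatty acid synthesis, had 148, 132 and 169 CPM in pMIR-Sox2, against 172, 165 and 197 CPM in pMIR. The highest pMIR-Sox2 library was above the lowest pMIR library, and the difference did not pass (log2 fold change -0.25, SE 0.12, adjusted p = 0.122). It passed with the replicate number as a block (adjusted p = 0.0315) and without pMIR-Sox2 replicate 3 (0.0433). Scap had 110, 100 and 95.3 CPM in pMIR-Sox2, against 116, 98.04 and 112 CPM in pMIR, and the groups overlapped (log2 fold change -0.10, SE 0.11, adjusted p = 0.489). Within each library the ratio of Srebf2 to Srebf1 was 2.27, 2.41 and 2.26 in pMIR-Sox2, against 3.04, 3.11 and 2.86 in pMIR. The ratio was lower in each pMIR-Sox2 library than in any pMIR library (mean log2 difference -0.38). Srebf2 alone already separated the groups, so the ratio adds no test. Insig2, the second Insig gene, rose while Insig1 fell: it had 35.4, 35.1 and 26.8 CPM in pMIR-Sox2, against 20.1, 20.7 and 22.1 CPM in pMIR (log2 fold change 0.63, SE 0.13, adjusted p = 0.00458). The ratio of Insig1 to Insig2 was 2.25, 2.28 and 4.59 in pMIR-Sox2, against 9.48, 8.08 and 8.09 in pMIR. Both genes already separated the groups, so this ratio adds no test.

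Of 9 enzymes of fatty acid synthesis 6 fell, 1 (Acss2) rose and 2 (Elovl6 and Scd2) did not pass. These are 66.7% falling and 11.1% rising, against 20% and 23.2% of all genes tested other than Sox2. The median log2 fold change was -0.50, and the summed level was 2211 ± 231 CPM in pMIR-Sox2 and 3170 ± 256 CPM in pMIR (SD, n = 3 each). Acly, which frees acetyl-CoA from citrate in the cytosol, had 314, 266 and 324 CPM in pMIR-Sox2, against 468, 421 and 464 CPM in pMIR. Replicate 2 was the lowest in both groups, and the groups did not overlap (log2 fold change -0.58, SE 0.11, adjusted p = 0.00334). Acss2, which makes acetyl-CoA from acetate, went the other way with 34.6, 61.9 and 31.2 CPM in pMIR-Sox2, against 15.5, 19.3 and 16.8 CPM in pMIR. Replicate 2 was the highest in both groups, and every pMIR-Sox2 library was above every pMIR library (log2 fold change 1.31, SE 0.24, adjusted p = 0.00282). Small parts of the Acss2 exons (1.94 to 3.89% each) overlap Ggt7, Gss and Acss2os on the opposite strand.

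Fasn, the synthase that builds palmitate, averaged 285 ± 81.1 CPM in pMIR-Sox2 and 491 ± 58.8 CPM in pMIR (SD, n = 3 each). It fell by 0.78 on the log2 scale (SE 0.20, adjusted p = 0.0112), and its libraries ranged from 203 to 365 CPM in pMIR-Sox2 and from 437 to 554 CPM in pMIR. Acaca, the carboxylase that makes malonyl-CoA, fell by 0.46 on the log2 scale (adjusted p = 0.0259). Its call was lost with library totals as the only scaling (adjusted p = 0.0631) and without pMIR-Sox2 replicate 2 (0.0772), pMIR replicate 1 (0.104) or pMIR replicate 3 (0.0728), and 52.6% of its 50-base windows also occur in the pseudogene Gm5182. Elovl6, which lengthens palmitate, did not pass (log2 fold change 0.10, SE 0.18, adjusted p = 0.674), and its sign turned without pMIR-Sox2 replicate 2 (-0.01) or pMIR replicate 3 (-0.03).

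Among the desaturases of the member list, Scd1, Fads1 and Fads2 fell and Scd2 did not pass. Scd1, a stearoyl-CoA desaturase, had 330, 372 and 483 CPM in pMIR-Sox2, against 613, 721 and 703 CPM in pMIR. The groups were well apart (log2 fold change -0.78, SE 0.15, adjusted p = 0.00324). Its paralogue Scd2 had 891, 1005 and 1176 CPM in pMIR-Sox2, against 1252, 1131 and 1542 CPM in pMIR. The highest pMIR-Sox2 library was above the lowest pMIR library (log2 fold change -0.35, SE 0.15, adjusted p = 0.0894), and the difference passed with the replicate number as a block (0.0104) and without pMIR-Sox2 replicate 3 (0.0396). The ratio of Scd1 to Scd2 was 0.371, 0.371 and 0.411 in pMIR-Sox2, against 0.490, 0.637 and 0.456 in pMIR. It was lower in every pMIR-Sox2 library (mean log2 difference -0.44), and 2.68% of the 50-base windows of Scd2 also occur in Scd1. Scd1 alone already separated the groups, so the ratio adds no test. Fads1, the front-end desaturase that makes arachidonate, had 47.5, 47.1 and 59.1 CPM in pMIR-Sox2, against 71.7, 68.7 and 76.4 CPM in pMIR. All its pMIR-Sox2 libraries were below pMIR (log2 fold change -0.50, SE 0.12, adjusted p = 0.00796). Its neighbour in the path, Fads2, fell by 0.67 on the log2 scale (adjusted p = 0.0103), which was lost without pMIR-Sox2 replicate 1 (0.0518). Fads3, outside the members and picked after its values were seen, rose by 1.17 on the log2 scale (SE 0.27, adjusted p = 0.00771). It had 5.33, 8.87 and 4.64 CPM in pMIR-Sox2, against 2.88, 2.34 and 3.12 CPM in pMIR.

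The 3 genes of export and receptor turnover all rose, against 23.2% of all genes tested other than Sox2. Together the 3 had 62.8 ± 3.24 CPM in pMIR-Sox2 and 29.6 ± 6.08 CPM in pMIR (SD, n = 3 each). Abca1, the transporter that hands cholesterol to apolipoprotein, had 12.6, 12.9 and 9.68 CPM in pMIR-Sox2, against 3.10, 2.62 and 3.65 CPM in pMIR. Every pMIR-Sox2 library was far above pMIR (log2 fold change 1.91, SE 0.20, adjusted p = 0.000126). Mylip, a ubiquitin ligase that limits sterol uptake, had 11.3, 17.8 and 12.9 CPM in pMIR-Sox2, against 3.43, 6.53 and 4.85 CPM in pMIR. Replicate 2 was the highest in both groups, with no overlap between them (log2 fold change 1.51, SE 0.26, adjusted p = 0.00167). Abcg1, the transporter that passes cholesterol to lipoprotein particles, had 39.4, 35.1 and 36.7 CPM in pMIR-Sox2, against 18.1, 18.6 and 27.8 CPM in pMIR. Here pMIR replicate 3 stood above the other pMIR libraries and below every pMIR-Sox2 library (log2 fold change 0.79, SE 0.17, adjusted p = 0.0051). The 3 calls held in every alternative run.

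**Figure D3:**
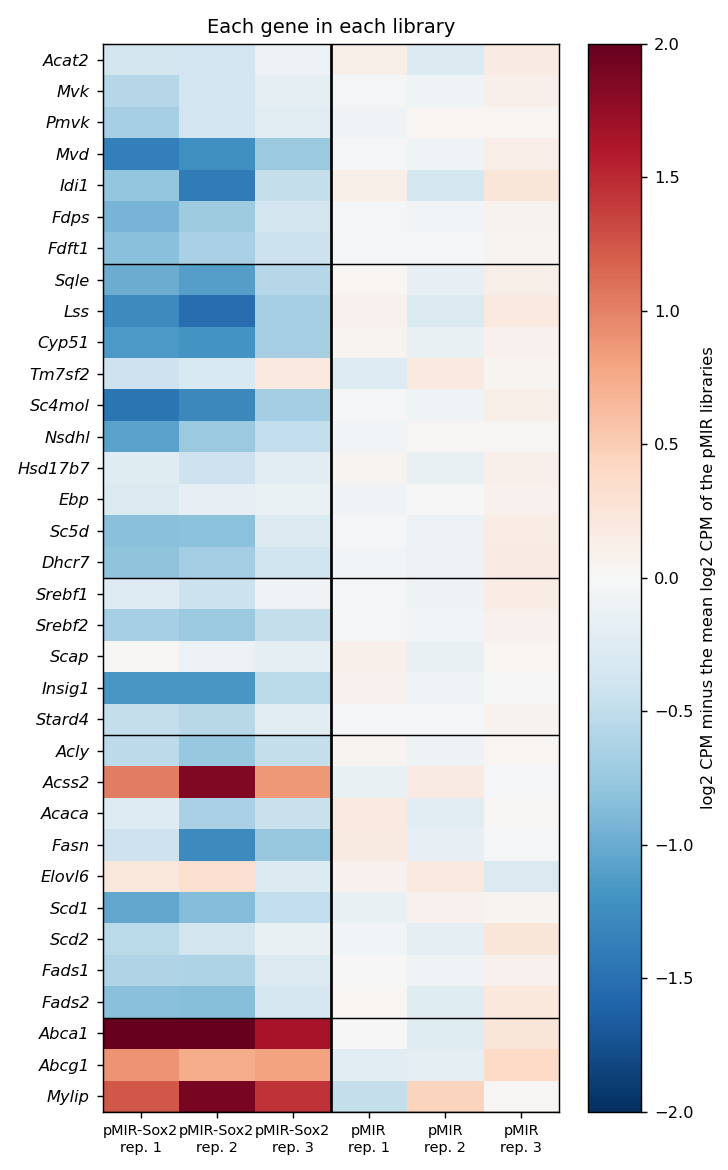
Log2 CPM of each member (rows, in pathway order) in each library (columns) minus the mean log2 CPM of the pMIR libraries; the colour scale ends at -2 and 2. Blue fills the pMIR-Sox2 columns over the synthesis rows and is mostly palest in replicate 3, and Acss2 and the export rows are red.

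Within pMIR-Sox2, replicate 3 was the highest library for 20 of the 22 members that fell (90.9%), as it was for 71.4% of all 2577 genes that fell. Replicates 1 and 2 were each the lowest for 11 members (50%), against 32.2% and 60.03% of those genes. In pMIR, replicate 2 was the lowest for 18 members (81.8%) and replicate 3 the highest for 16 (72.7%), against 49.6% and 24.9% of those genes.

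**Figure D4:**
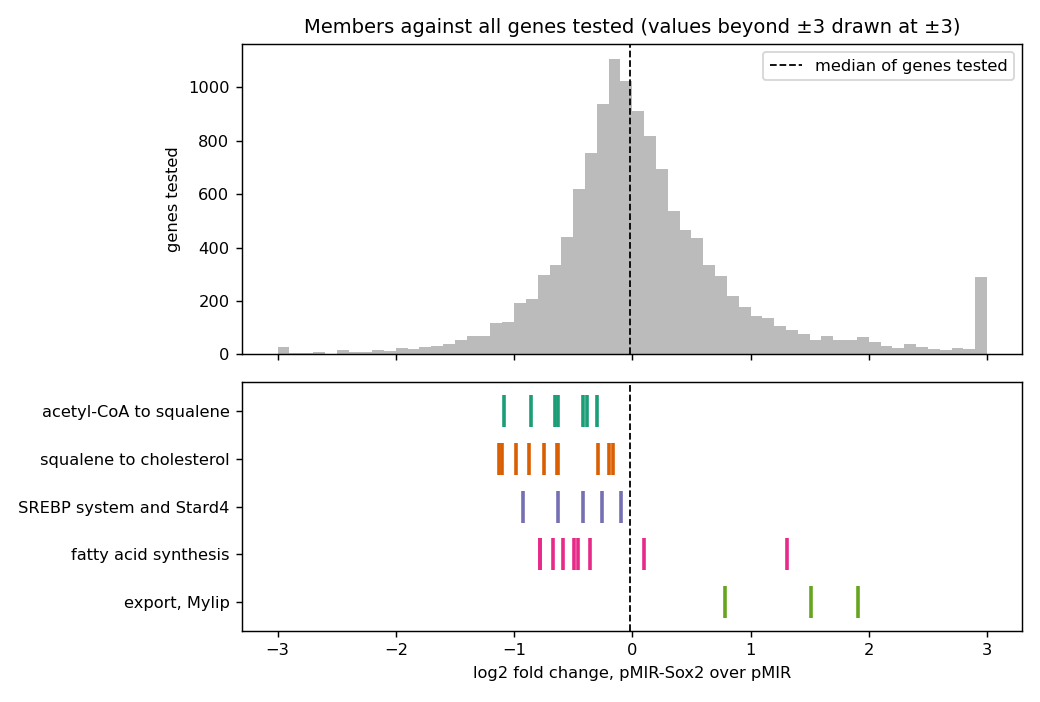
Histogram of the log2 fold change of pMIR-Sox2 over pMIR for all genes tested, above a tick for each member by role; dashed lines mark the median of genes tested (-0.02). Ticks of the first 3 roles lie left of the line, and the export ticks lie to its right.

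Per kilobase of all annotated exon, Scd2, Scd1 and Acly held the first 3 places in both groups. Scd2 was the highest with 187 ± 26.2 CPM per kb in pMIR-Sox2 and 239 ± 38.7 CPM per kb in pMIR (SD, n = 3 each), followed by Scd1 with 80.8 ± 16.2 CPM per kb in pMIR-Sox2 and 139 ± 11.8 CPM per kb in pMIR. Acly was the third with 57.1 ± 5.91 CPM per kb in pMIR-Sox2 and 85.4 ± 4.93 CPM per kb in pMIR, and in pMIR Cyp51 (84.4 ± 7.42) did not differ from it beyond the spread. Cyp51 stood at 42.6 ± 8.91 CPM per kb in pMIR-Sox2, where Srebf2 (48.0 ± 4.62) was within its spread. At the bottom, Abca1 had 1.13 ± 0.171 CPM per kb in pMIR-Sox2 and 0.301 ± 0.0496 CPM per kb in pMIR. Abcg1, Mylip and Abca1 held places 28, 29 and 34 of 34 in pMIR-Sox2, against 31, 33 and 34 in pMIR. By the longest transcript in place of all exons, Srebf2 took the third place in pMIR, with 105 CPM per kb against 102 for Acly, and in pMIR-Sox2 it had 67.98 CPM per kb and Acly 68.05. Lengths are those of GENCODE M21, another build than that of the counts.

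**Figure D5:**
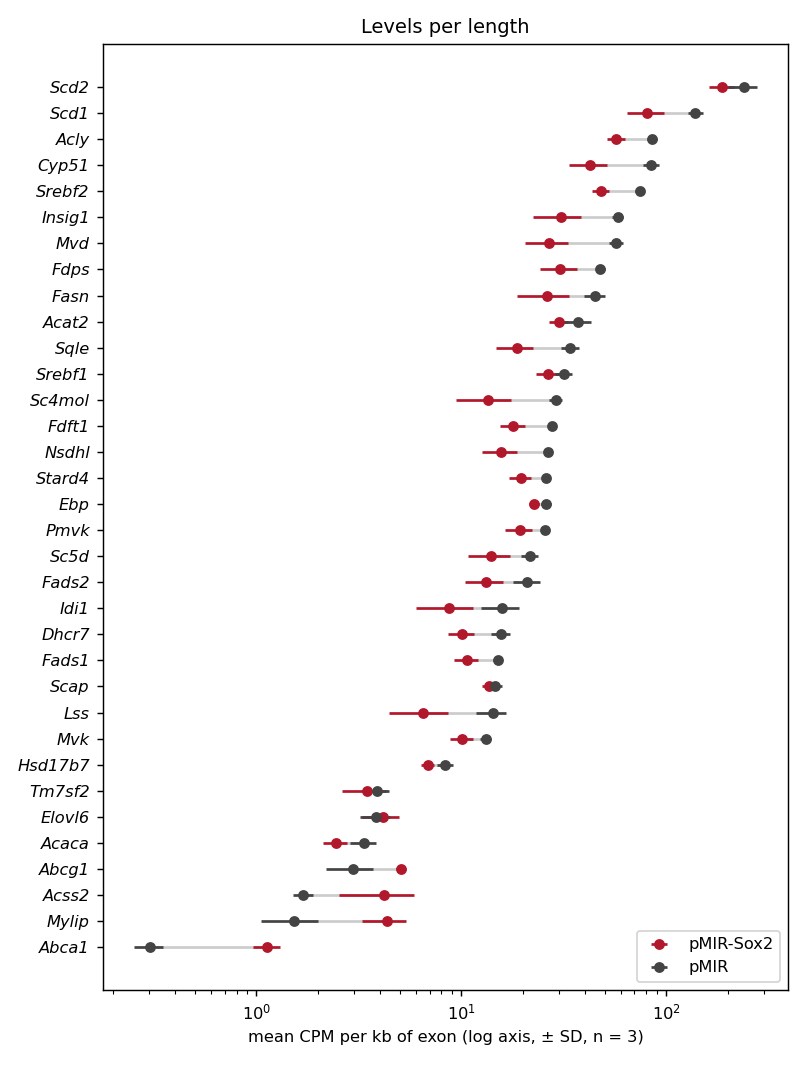
Mean CPM per kilobase of exon of each member in pMIR-Sox2 (red) and pMIR (grey) on a log axis, with SD (n = 3), sorted by the pMIR level. Scd2 tops both groups at 187 and 239 CPM per kb, and Abca1 closes the list at 1.13 and 0.301 CPM per kb.

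Other genes of the same pathways moved less uniformly. Of 23 genes of sterol synthesis, uptake and SREBP processing outside the members 20 were tested, and 8 fell, 3 rose and 9 did not pass, with a median log2 fold change of -0.20. The shares were 40% falling and 15% rising, against 20% and 23.2% of all genes tested other than Sox2. Tmem97, a sterol-regulated protein of the endoplasmic reticulum, fell by 1.06 on the log2 scale with 32.1, 23.9 and 42.1 CPM in pMIR-Sox2, against 75.4, 56.9 and 72.2 CPM in pMIR (adjusted p = 0.00279). Lipa, the lysosomal lipase that frees cholesterol from its esters, rose by 0.62 on the log2 scale with 61.2, 61.9 and 47.9 CPM in pMIR-Sox2, against 34.7, 39.3 and 37.0 CPM in pMIR (adjusted p = 0.00356). The groups of both genes did not overlap. Insig2, described above, was picked after its values were seen.

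Of 12 genes of isoprenoid use outside sterols 2 rose and 2 fell (16.7% each), with a median log2 fold change of -0.09. Both shares lie below those of all genes tested, of which 23.2% rose and 20% fell. The farnesyltransferase subunit Fnta rose by 0.65 on the log2 scale (adjusted p = 0.00277), and Dhdds, of dolichol synthesis, fell by 0.43 (adjusted p = 0.00572). Rabggta, a subunit of the Rab geranylgeranyl transferase, rose by 0.44 (adjusted p = 0.0167), which was lost without pMIR-Sox2 replicate 1 (0.0502) or 2 (0.0568) and without pMIR replicate 1 (0.0745) or 3 (0.0527). Only 1 gene rose in each of these 4 fits, and only 1 fell without pMIR-Sox2 replicate 1 or 2 or any 1 of the pMIR libraries, and with library totals as the only scaling.

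Of 28 other tested genes of fatty acid, phospholipid and triglyceride synthesis 7 rose (25%), 9 fell (32.1%) and 12 did not pass. Over all genes tested 23.2% rose and 20% fell, and the median log2 fold change of the 28 was -0.14. The other 9 of the 37 listed were too low to be tested or had no row under that symbol. Gpam, the acyltransferase that begins glycerolipid synthesis, had 94.7, 87.6 and 59.2 CPM in pMIR-Sox2, against 19.95, 19.2 and 21.8 CPM in pMIR. Every pMIR-Sox2 library was above pMIR, with replicate 3 the lowest of its group (log2 fold change 1.99, SE 0.17, adjusted p = 5.32e-05). Pcyt1a, the rate-limiting enzyme of phosphatidylcholine synthesis, rose by 0.90 on the log2 scale (adjusted p = 0.000802), and Elovl1, an elongase of very long chains, fell by 0.75 (adjusted p = 0.000317). Without pMIR-Sox2 replicate 1 or without pMIR replicate 3, 5 of these genes fell.

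Of 19 genes of the liver X receptor group 12 were tested, and 3 rose (25%), 5 fell (41.7%) and 4 did not pass. Over all genes tested 23.2% rose and 20% fell, and the 12 had a median log2 fold change of -0.31. The count that fell was 3 with no filter on low counts. Lpcat3, a target that remodels phospholipids, had 112, 128 and 114 CPM in pMIR-Sox2, against 59.4, 61.4 and 70.6 CPM in pMIR. It was higher in each pMIR-Sox2 library (log2 fold change 0.89, SE 0.11, adjusted p = 0.000285). Arl4c, a target known from macrophages, went the other way with 3.22, 3.73 and 4.52 CPM in pMIR-Sox2, against 12.4, 17.2 and 13.4 CPM in pMIR (log2 fold change -1.91, SE 0.20, adjusted p = 0.000126). Cyp27a1, which makes 27-hydroxycholesterol, rose by 2.92 on the log2 scale, with under 1 CPM in each pMIR library (adjusted p = 0.00147). The receptor gene Nr1h2 did not pass (log2 fold change 0.26, adjusted p = 0.126) and did with the replicate number as a block (0.0272), and Nr1h3 was too low to be tested. Gpr183, the oxysterol receptor that guides B cells in the spleen, had 77.7, 54.8 and 134 CPM in pMIR-Sox2, against 261, 209 and 273 CPM in pMIR. All pMIR-Sox2 libraries were below pMIR (log2 fold change -1.48, SE 0.28, adjusted p = 0.00306), and the call was lost with no filter on low counts (0.0595). Nr1h2, Nr1h3 and Gpr183 were picked after their values were seen.

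Mitochondrial fatty acid oxidation, the path opposite to synthesis, had 10 of 21 tested genes rising (47.6%), 3 falling (14.3%) and 8 not passing. Its median log2 fold change was 0.23, and over all genes tested 23.2% rose and 20% fell. Hadhb, a subunit of the trifunctional protein, had 69.5, 81.5 and 59.7 CPM in pMIR-Sox2, against 37.4, 39.3 and 37.3 CPM in pMIR. The groups did not overlap (log2 fold change 0.89, SE 0.12, adjusted p = 0.000601). Ppargc1a, a coactivator of mitochondrial genes, rose by 1.97 on the log2 scale, with under 1 CPM in each pMIR library (adjusted p = 0.000862), and the reductase Decr1 rose by 0.68 (adjusted p = 0.00172). The count that rose was 6 without pMIR-Sox2 replicate 2 or without pMIR replicate 1 and 5 without pMIR replicate 3, and the count that fell was 1 without pMIR replicate 1.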

How the data were processed

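The deposited file holds raw read counts per Ensembl gene made by the authors, 1 column per library, with symbols as used here. Per the submitters' processing notes the tools were Trimmomatic 0.32, TopHat2 2.0.11, Bowtie2 2.2.2, SAMtools 0.1.19 and HTSeq 0.6.1p1 on the build mm9, with no role or order. No source used here gives the annotation release or the strand setting. Lines that name no gene (5 of them) were left out of every step. Reads with several alignments took 23.1 to 26.5% of a pMIR-Sox2 column and 25.7 to 26.0% of a pMIR column. Reads outside features took 12.1 to 14.6% in pMIR-Sox2 and 11.4 to 13.1% in pMIR, and reads without an alignment took 8.51 to 8.92% in pMIR-Sox2 and 8.55 to 9.65% in pMIR. Ambiguous reads took at most 0.289% in pMIR-Sox2 and 0.307% in pMIR.

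Counts were analysed with edgeR 4.0.16 in R 4.3.3: filterByExpr by group, TMM scaling, a robust quasi-likelihood fit of pMIR-Sox2 against pMIR, and Benjamini-Hochberg adjustment over the 12899 genes tested, with a threshold of 0.05. The common biological coefficient of variation was 14.4%. CPM are counts scaled to the effective library size, and an SE is the size of the log2 fold change over the square root of F. Alternatives were DESeq2 1.42.0 size factors or its Wald test, library totals, no filter, limma 3.58.1 with voom, a replicate block, and each library left out in turn. On simulated data of the comparison with 12735 genes, 50 genes were changed by each of 4 folds. The test found 24 of those changed 1.5-fold, 37 of those changed 2-fold, 49 of those changed 4-fold and all 50 of those changed 8-fold, and it called 8 genes that had not been changed. Far fewer genes were changed there than were called in the data (2577 fell and 2990 rose). The adjusted p is stricter when few genes change, so the numbers found need not hold for the data.

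The members and lists were chosen with earlier results of these data known. Values in every library are given for up to 4 members of each role with the smallest adjusted p, for those that rose, and for Srebf1, Srebf2, Scap, Scd1 and Scd2; from each other list up to 3 genes with the smallest adjusted p past the threshold are named, and some items that the rule picks are not reported here. Replicate numbers come from the titles, and same-numbered libraries share 8, 9 or 12 in their descriptions. Their deviations from the group means correlated at 0.242, 0.359 and 0.189 across genes, against -0.241 to 0.0341 for other pairs. Deviations within a group cancel out by construction, so the lower values of other pairs are in part built in. The numbers were taken to pair the libraries. The main fit did not use this pairing, and the replicate block was run as an alternative. GENCODE M21 on GRCm38 gave exon lengths, overlaps and shared 50-base windows, and RefSeq on GRCm38.p6 the promoters; no coordinate was carried from mm9. Sc4mol was matched as Msmo1.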

Additional observations from a re-analysis of the deposited data

How the results depend on the processing

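Of the 26 members called, all kept their direction under the 12 alternatives, 6 of which left out a library, and 19 stayed past the threshold in every one; the others are Mvk, Pmvk, Idi1, Sc5d, Stard4, Acaca and Fads2. Leaving out 1 library gave 16 to 24 members that fell and 4 to 4 that rose, and 1783 to 2885 genes that fell and 2362 to 3321 that rose over all genes, against 2577 and 2990. In the other lists it gave 7 to 10 falling and 2 to 3 rising genes of sterol metabolism, 1 to 3 and 1 to 3 of isoprenoid use, 5 to 10 and 6 to 7 of lipid synthesis, 4 to 5 and 3 to 3 of the liver X receptors, and 1 to 3 and 5 to 10 of fatty acid oxidation. Isoprenoid genes that fell numbered 1 with library totals, and liver X receptor genes that fell numbered 3 with no filter. For counts from a single alternative fit, the share of all genes called in that fit is not given here. The log2 fold change of Elovl6 ran from -0.0343 to 0.266 as 1 library was left out, and it was below 0 without pMIR replicate 3 (adjusted p = 0.903) and without pMIR-Sox2 replicate 2 (-0.00777, adjusted p = 0.979). With the replicate block, 26 members fell and 4 rose, with Acat2, Hsd17b7, Srebf1 and Scd2 added, and no other member's call changed. The share of all genes called with the block is not given here, so these counts have no share to be set against. The TCACNCCAC count of 0 was 10 with 1 mismatch and 8 as TCACNNCA, a form chosen after seeing the data. In pMIR, 7 members exceeded 50 CPM per kb, or 9 by the longest transcript. The causes of these changes were not tested. With 3 libraries a group, changes near 1.5-fold were often missed in simulated data. Far fewer genes were changed there than were called here, so that share need not hold for these data.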
